A study of Mus musculus with 4 samples.

Results

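Bone marrow stroma and vessels make a small set of secreted and surface proteins that hold and feed blood cells, and blood cells carry the matching receptors. The 10 genes of this exchange described here, Cxcl12, Kitl, Il7, Cxcl14, Vcam1, Lepr, Cxcr4, Ackr3, Kit and Il7r, were read in 1 single-cell library of the mouse tibia, where they are 10 of the 31053 genes of its count matrix. They were chosen by name, and all 10 were found once in the matrix. The library was made from 2 tibiae of 1 male mouse at postnatal day 6 that carried the Col10a1 Cre driver, a Rosa26 tdTomato reporter, and 1 changed copy each of Irx3 (deleted in the cells where Cre acts) and Irx5. This animal stands for the heterozygous control of the study, so no wild-type or mutant sample enters the comparison. Col10a1 Cre acts in hypertrophic chondrocytes, and the reporter then also marks the cells that descend from them. The bone was digested with enzymes, with the secondary ossification centres left out, so cell numbers are not tissue proportions, and the cells that came free were captured without a sort. The 4 sequencing entries are 1 library, so there is no replicate, no test was run, and every interval is a 95% interval for counting error alone.

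CXCL12 is a chemokine that draws and retains haematopoietic stem cells and B cell precursors through its receptor CXCR4, whereas ACKR3 binds CXCL12 without classical G protein signalling and removes it from the surroundings. KIT ligand (Kitl, stem cell factor) acts on KIT, a receptor tyrosine kinase of stem cells, progenitors and mast cells, and interleukin 7 acts on lymphoid precursors through IL7R and the common gamma chain. LEPR, the leptin receptor, is widely used to mark the perivascular stroma of the marrow, VCAM1 is an adhesion molecule bound by the integrin of Itga4 and Itgb1, and CXCL14 is a chemokine whose receptor use is less settled.

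The matrix held 14181 barcodes and 158281984 UMIs (barcoded transcript copies, counted once each), with a median of 8235 UMIs per barcode. After the filters 8256 cells with a median of 13958 UMIs were left, and 460 of them were marked as likely doublets by Scrublet. They formed 31 clusters, which were named by marker lists only as "like" a cell class. Of the cells kept, 3738 were counted as blood cells, 2360 as stromal and vascular cells, 1970 as cartilage cells, and 188 were left out of these 3 compartments. Levels are given as CPM, the UMIs of a gene per 1000000 UMIs of the group. Since the counts come from the 3′ ends of transcripts, a level was compared between cell groups and not between genes.

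The adipo-lineage marrow stroma-like class, 131 cells, had all 13 markers of its list at 10 CPM or more, among them Lpl at 2131 CPM, Hp at 1129 CPM and Adipoq at 410 CPM, whereas the pan-leukocyte gene Ptprc was at 5.59 CPM. None of the 10 genes was used for a name or for the clustering. The endothelial-like class held 2 clusters, a main one of 743 cells and a cluster of 72 cells led by Eln, Stmn2 and Gja4. The smaller cluster had none of its list's markers among its 10 leading genes, though Cdh5 stood at 1402 CPM and Pecam1 at 1300 CPM in it, so the clusters are given separately where they differ. The macrophage-like class of 401 cells also had osteoclast genes among its leading genes (Acp5 at 1894 CPM, Ctsk at 1349 CPM).

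On GRCm38 the genes lie on 8 chromosomes. Cxcl12 spans chr6:117168535-117181367 (plus strand), Cxcr4 chr1:128588199-128592293 (minus strand), and Ackr3 chr1:90203980-90216751 (plus strand). Kitl spans chr10:100015630-100100416 (plus strand) and Kit chr5:75574916-75656722 (plus strand). Il7 spans chr3:7569994-7613760 (minus strand) and Vcam1, on the same chromosome, chr3:116109949-116129688 (minus strand). Il7r lies at chr15:9505788-9530176 (minus strand), Lepr at chr4:101717404-101815352 (plus strand) and Cxcl14 at chr13:56288643-56296551 (minus strand). All are protein-coding, and the reads of all annotated transcripts of a gene were counted together. Alternative forms such as those of Cxcl12 and Kitl, which bear on whether the protein stays at the membrane or matrix, could therefore not be told apart.

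The sequences before the starts of Cxcl12 and of its 2 receptors are shown because these 3 genes had 3 different places of highest level, in marrow stroma-like, lymphoid and cartilage or fibroblast cells. Each run is the 250 bases before the RefSeq start (GRCm38.p6), read 5′ to 3′ on the gene's strand, with capitals for TATAAA (the TATA box), GGGCGG (the GC box), CCAAT and the motif of the EBF factors (TCCC and GGGA with any 2 bases between them), searched on both strands. The windows are chr6:117168285-117168534 for Cxcl12, chr1:128592300-128592549 for Cxcr4 and chr1:90203730-90203979 for Ackr3.
Cxcl12: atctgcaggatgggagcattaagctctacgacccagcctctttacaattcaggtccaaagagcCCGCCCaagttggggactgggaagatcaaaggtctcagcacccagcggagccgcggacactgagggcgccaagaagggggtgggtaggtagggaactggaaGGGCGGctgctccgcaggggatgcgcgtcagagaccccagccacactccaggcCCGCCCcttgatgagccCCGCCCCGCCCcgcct
Cxcr4: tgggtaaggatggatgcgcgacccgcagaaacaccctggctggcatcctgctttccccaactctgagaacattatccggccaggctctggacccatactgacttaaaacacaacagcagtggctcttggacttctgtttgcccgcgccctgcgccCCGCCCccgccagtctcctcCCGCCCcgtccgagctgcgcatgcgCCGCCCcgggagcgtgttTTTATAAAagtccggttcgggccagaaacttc
Ackr3: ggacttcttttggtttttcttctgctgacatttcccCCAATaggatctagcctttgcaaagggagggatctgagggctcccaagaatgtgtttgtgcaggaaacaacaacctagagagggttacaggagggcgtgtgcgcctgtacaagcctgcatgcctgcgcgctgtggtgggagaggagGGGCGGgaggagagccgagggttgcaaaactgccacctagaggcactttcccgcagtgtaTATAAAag
Cxcl12 held 5 GC boxes, 2 of them overlapping next to the start, and no TATA box. Cxcr4 held 3 GC boxes and overlapping TATA boxes on both strands, the first beginning 32 bases before the start, and Ackr3 held 1 GC box, 1 CCAAT and a TATA box that began 8 bases before the start. Over all 32851 windows of the same length, 32.7% held a GC box, 12.4% a TATA box, 33.8% a CCAAT and 0.779% the EBF motif. None of the 8 genes with a RefSeq window (all but Il7 and Vcam1) held the EBF motif, and GC made up 64.4% of the bases for Cxcl12, 61.2% for Cxcr4 and 54.0% for Ackr3, against a median of 52.4%. These matches describe letters only and are not binding sites.

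The first comparison set the stromal and vascular cells against the blood cells. The ligands and the receptors Lepr and Ackr3 lay on the stromal and vascular side and the receptors Cxcr4 and Il7r on the blood side, while Kit was found on both. Cxcl12 stood at 940 CPM in stromal and vascular cells and at 15.8 CPM in blood cells, a log2 ratio of 5.90 (5.801 to 5.9996). Kitl stood at 166 against 2.98 CPM, a log2 ratio of 5.80 (5.58 to 6.04), and Lepr at 58.7 against 2.07 CPM, a log2 ratio of 4.83 (4.55 to 5.12). The ratio was smaller for Cxcl14, 55.6 against 3.69 CPM or 3.92 (3.70 to 4.13), and for Ackr3, 38.3 against 2.83 CPM or 3.76 (3.51 to 4.01). It was smallest among these for Vcam1, at 115 against 46.3 CPM, or 1.32 (1.24 to 1.39). Cxcr4 went the other way, with 35.3 CPM in stromal and vascular and 150 CPM in blood cells, a log2 ratio of -2.09 (-2.18 to -1.996). Il7r was at 3.17 against 46.8 CPM, a log2 ratio of -3.88 (-4.19 to -3.60).

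A gene was counted as higher or lower when its level differed at least 2-fold and reached 10 CPM on either side. By this rule 6 of the 9 genes that reached 10 CPM were higher in stromal and vascular cells, among 9390 genes of which 25.4% were higher. Another 2 were lower, where 16.2% of all genes were lower. Kit was neither, at 19.5 against 22.7 CPM. Il7 did not reach the minimum, with 123 UMIs (3.90 CPM) in stromal and vascular and 6 UMIs (0.112 CPM) in blood cells. The median log2 ratio was 4.83 over Cxcl12, Kitl, Lepr, Vcam1 and Cxcl14, and -1.16 over Cxcr4, Ackr3, Kit and Il7r, beside 0.03 over all genes compared. Lepr, itself a receptor, was placed in the first group as a stromal marker, and the median of that group is its own ratio. Both medians depend on this placement, so they are not a contrast of ligands with receptors.

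**Figure D1:**
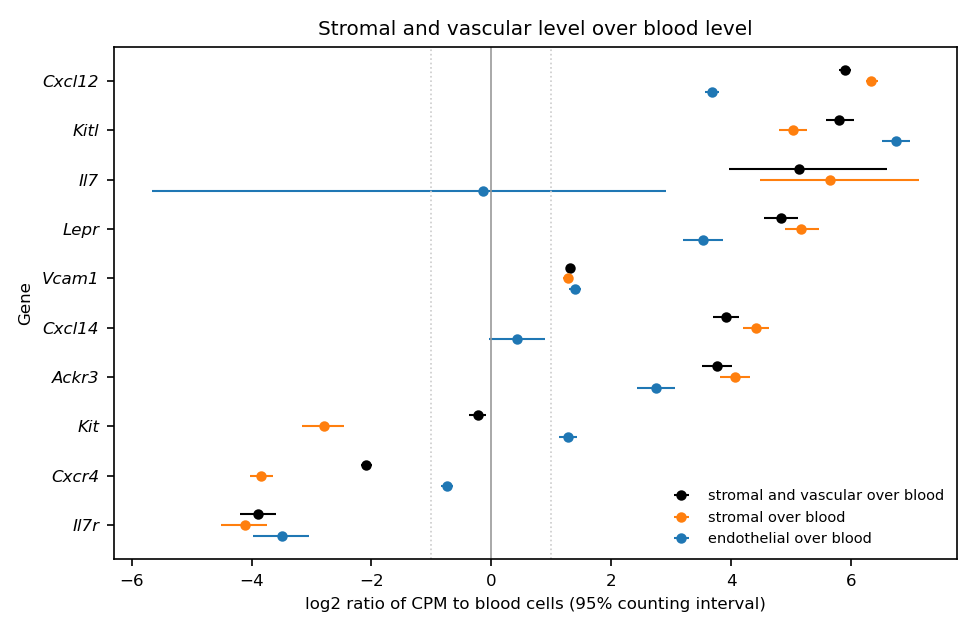
Log2 ratio of the CPM of each gene in stromal and vascular cells together (black), stromal cells alone (orange) and endothelial-like cells alone (blue) over that in blood cells, with 95% counting intervals and dotted lines at a 2-fold difference. Kit lies on opposite sides of 0 for stromal cells (-2.80) and endothelial-like cells (1.28), and Il7 has 1 UMI in endothelial-like cells.

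Splitting the first group showed where its parts differed. Stromal cells without endothelium held Cxcl12 at 1275 CPM and endothelial-like cells at 201 CPM, whereas Kitl was higher in endothelial-like cells, at 320 against 97.1 CPM. For Kit the split turned the direction against blood cells, since endothelial-like cells held 55.2 CPM, a log2 ratio of 1.28 (1.13 to 1.43), and stromal cells 3.27 CPM, a log2 ratio of -2.80 (-3.16 to -2.45). Cxcr4 was at 89.98 CPM in endothelial-like cells and at 10.5 CPM in stromal cells, beside 150 CPM in blood cells. Of the genes at 10 CPM or more, 6 of 9 were higher and 3 lower in stromal cells than in blood cells (23.5% and 19.5% of all genes), and 6 of 8 were higher and 1 lower in endothelial-like cells (25.4% and 17.0% of all genes).

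Cxcl12 was concentrated in few cells. The 131 marrow stroma-like cells were 1.59% of the cells kept and held 49.5% of its 31602 UMIs, and the 615 immature osteoblast-like cells, 7.45% of the cells, held 35.7%. The marrow stroma-like class stood at 8753 CPM (8617 to 8891) and the immature osteoblast-like class, led by Tnc, Mmp13 and Wif1, at 1543 CPM (1515 to 1572). The median marrow stroma-like cell held 117 Cxcl12 UMIs, or 11518 CPM, with a highest count of 546 UMIs, but 12 of the 131 cells held none. In the immature osteoblast-like class the median cell was at 435 CPM and the cells between the 5th and the 95th percentile ran from 0 to 8311 CPM, so single cells of this class ran from none into the range of the marrow stroma-like cells. How the boundary between the classes was drawn moved these values. At Leiden resolution 2 the marrow stroma-like class had 295 cells, 95 from the first class and 200 from the immature osteoblast-like class. It held Cxcl12 at 6971 CPM and 72.4% of the UMIs of the gene, and the 418 cells then named immature osteoblast-like stood at 569 CPM. Between them lay a cluster named late erythroid-like at 1735 CPM (1639 to 1836) and an unnamed cluster at 716 CPM (667 to 767). The former also held Vcam1 at 173 CPM and Lepr at 92.1 CPM, and the source of these counts was not tested. Without the doublets the marrow stroma-like class had 96 cells, with Cxcl12 at 13125 CPM, Vcam1 at 1097 CPM and Cxcl14 at 829 CPM. Cxcl14 was at 338 CPM in the class of resolution 2 and at 308 CPM with 3000 variable genes, beside 522 CPM.

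Among the other stromal and vascular cells the order of Cxcl12 was the 72-cell endothelial-like cluster at 1010 CPM (937 to 1086), the main endothelial-like cluster at 139 CPM (131 to 146), and the fibroblast, periosteal or tendon-like class at 84.7 CPM (74.5 to 95.9). The pericyte or smooth muscle-like class at 64.4 CPM (49.9 to 81.8) overlapped the last of these. The 14 Schwann-like cells stood at 128 CPM (74.7 to 205) on 17 UMIs. In the 72-cell cluster 86.1% of the cells had a Cxcl12 UMI. Among its cells with at least 5000 UMIs, 77.4% (65.0 to 87.1) did after each was thinned to that depth. Cells with fewer UMIs were left out of this and of every later thinned share. In the main endothelial-like cluster only 14.7% of the cells had one, and 3 cells held 50.5% of the UMIs. Without those 3 cells its level was 69.7 CPM. Other low values also lay in few cells. In the plasmacytoid dendritic-like class (115 CPM) 3 cells held 60.8% of the UMIs, 14.1% of its cells were marked as doublets, and Col1a1 stood at 3036 CPM in it. At resolution 2 the class had 0.621% doublets and Cxcl12 at 17.6 CPM, of which 3 cells held 87.5%. Whether doublets or free RNA account for these counts was not tested.

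**Figure D2:**
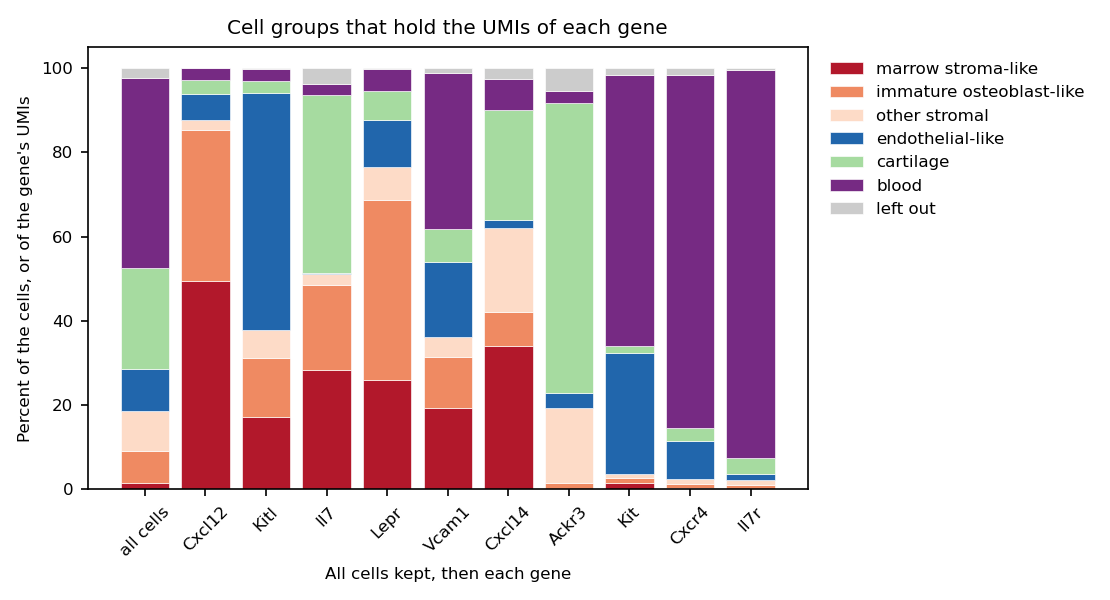
Share of the cells kept (first bar) and of the UMIs of each gene (other bars) that fell in 7 groups of cells. Marrow stroma-like cells are a thin band of the first bar (1.59%) and 49.5% of the Cxcl12 bar, endothelial-like cells hold 56.4% of Kitl, cartilage 68.7% of Ackr3, and blood cells 92.1% of Il7r.

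Kitl had its highest level in the same marrow stroma-like class, at 533 CPM (500 to 568), but the larger endothelial-like class held 56.4% of its UMIs. In the main endothelial-like cluster Kitl was at 309 CPM (298 to 320), in the 72-cell cluster at 459 CPM (411 to 512), in pericyte or smooth muscle-like cells at 165 CPM (142 to 192) and in immature osteoblast-like cells at 107 CPM (99.9 to 115). The intervals of the marrow stroma-like class and of the 72-cell cluster overlapped, and those of the others did not. At resolution 2 the order of these 2 turned, with the marrow stroma-like class at 428 CPM (406 to 451) below the 72 cells at 459 CPM, again with overlap. Kitl was found in most endothelial-like cells, where 78.7% of the cells of the main cluster had a UMI and 3 cells held 3.55% of them. Among the 726 endothelial-like cells with at least 5000 UMIs, 66.7% (63.1 to 70.1) had a Kitl UMI after thinning. The share was 0.432% of late erythroid-like and 0.722% of neutrophil myelocyte-like cells, which were used as the background of free RNA. Mature osteoblast or osteocyte-like cells were at 14.2 CPM (11.8 to 17.0).

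At resolution 2 the endothelial-like cells fell into 4 clusters that all held Kitl. Kitl ranged from 217 to 459 CPM over them. Cxcl12 ranged from 14.7 CPM (10.8 to 19.6) in the 276 cells led by Emcn and Slco2a1, and 75.1 CPM in the 250 cells led by Igfbp3 and Gpihbp1, to 1010 CPM in the 72 cells led by Eln and Stmn2. The 187 cells led by Selp, with the sinusoidal marker Stab2 among their leading genes, stood at 399 CPM, but 11.2% of those cells had a Cxcl12 UMI and the value was 149 CPM without the 3 highest cells. Vcam1 was highest in the Selp-led cells at 297 CPM (276 to 319), followed by the Eln-led cells at 194 CPM (163 to 230), and was at 45.8 and 53.9 CPM in the other two. Kit was higher in the Igfbp3-led cells, at 88.8 CPM (78.6 to 100.01), and the Selp-led cells, at 67.7 CPM (57.9 to 78.8), than in the Eln-led cells at 32.4 CPM (20.5 to 48.6) and the Emcn-led cells at 21.1 CPM (16.3 to 26.9). Cxcr4 separated them differently, with 200 CPM (184 to 216) in Igfbp3-led and 134 CPM (108 to 164) in Eln-led cells and 20.5 and 20.7 CPM in the others.

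**Figure D3:**
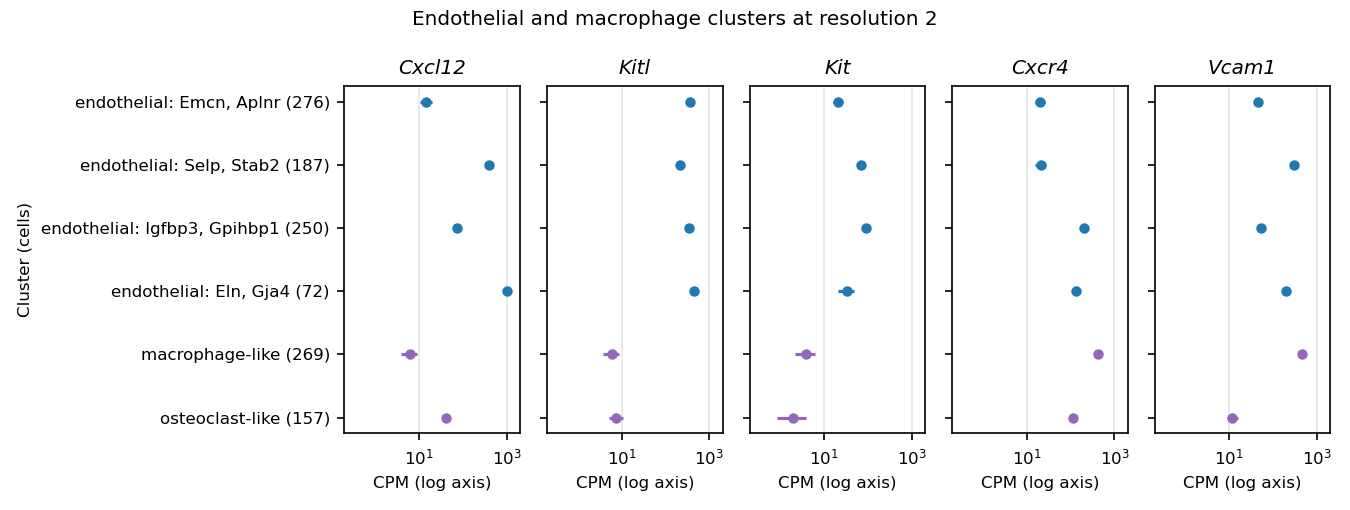
CPM (log axis) of 5 genes in the 4 endothelial-like clusters (blue, named by leading genes) and in the macrophage-like and osteoclast-like clusters (purple) at resolution 2, with 95% Poisson intervals and the number of cells in parentheses. Kitl spans 217 to 459 CPM among the endothelial-like clusters, whereas Cxcl12 runs from 14.7 to 1010 CPM, and Vcam1 separates macrophage-like (455 CPM) from osteoclast-like cells (11.8 CPM).

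Il7 had 239 UMIs in 196 cells, so its values rest on few counts. The marrow stroma-like class was highest at 38.0 CPM (29.5 to 48.2; 68 UMIs), followed by the immature osteoblast-like class at 6.56 CPM (4.84 to 8.70) and the chondrocyte-like class at 3.39 CPM. The order behind the marrow stroma-like class turned at resolution 2. There a chondrocyte-like cluster came second at 6.74 CPM (4.84 to 9.14) and immature osteoblast-like cells stood at 3.09 CPM (1.77 to 5.02), with overlap. After thinning, 18.0% (11.7 to 25.7) of marrow stroma-like cells of the first resolution had an Il7 UMI. None of 463 late erythroid-like and of 554 neutrophil myelocyte-like cells had one. Cartilage cells nonetheless held 42.3% of all Il7 UMIs, and were 23.9% of the cells, at a median of 22220 UMIs per cell against 10998 in stromal and vascular cells. Among cartilage clusters Il7 was at 6.08 CPM (4.10 to 8.68) in the one led by F3 and Il11, 3.50 CPM in the one led by Nfatc2, Matn1 and Ucma, and at 0 UMIs in the 106 cells led by Col10a1, where 3 UMIs would have been 0.843 CPM.

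Lepr was highest in marrow stroma-like cells at 308 CPM (283 to 335) and next in immature osteoblast-like cells at 123 CPM (115 to 131). Endothelial-like cells held 23.9 CPM (20.9 to 27.2), mature osteoblast or osteocyte-like cells 14.3 CPM, and all blood cells together 2.07 CPM. By count more Lepr UMIs lay in immature osteoblast-like cells (42.5%) than in marrow stroma-like cells (26.1%) at the first resolution. This order turned at resolution 2. There the marrow stroma-like class held 282 Lepr UMIs in reporter-positive and 704 in reporter-negative cells, and the immature osteoblast-like class 175 and 232. After thinning, 65.6% (56.7 to 73.8) of marrow stroma-like and 33.9% (30.1 to 37.8) of immature osteoblast-like cells had a Lepr UMI, against 0.432% of late erythroid-like cells. Leptin itself (Lep), the ligand, had next to no counts, at 0.0634 CPM in stromal and vascular cells and 0 in blood cells.

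Vcam1 was shared between stroma and myeloid blood cells. It stood at 731 CPM (692 to 771) in marrow stroma-like cells, 232 CPM (222 to 243) in the macrophage-like class, and between 112 and 126 CPM in pericyte or smooth muscle-like, endothelial-like and immature osteoblast-like cells, whose intervals overlapped. Promyelocyte-like cells, named by Elane, Mpo, Prtn3 and Ctsg, held 70.1 CPM (64.1 to 76.4), with a UMI in 39.4% of the cells, and neutrophil myelocyte-like cells 11.4 CPM. At resolution 2, 269 macrophage-like cells led by C1qa held Vcam1 at 455 CPM (434 to 477) and 157 osteoclast-like cells led by Acp5 held it at 11.8 CPM (8.75 to 15.6). Together these clusters had more cells than the macrophage-like class of the first resolution, so they are not a division of that class alone. Cxcr4 went the same way in this pair, at 418 CPM (397 to 438) and 114 CPM (104 to 124). Of the blood cells' 2488 Vcam1 UMIs, 1822 lay in the macrophage-like class.

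Cxcl14 was at 522 CPM (489 to 556) in marrow stroma-like cells, 180 CPM (165 to 196) in fibroblast, periosteal or tendon-like cells and 30.6 CPM (26.7 to 34.9) in immature osteoblast-like cells. Its cells were not those of Cxcl12 throughout. A fibroblast cluster of 116 cells led by Aspn and Postn had 275 CPM (245 to 308), and a chondrocyte-like cluster of 120 cells led by Penk, with Sfrp5 and Prg4 among its 10 leading genes, had 211 CPM (187 to 237), where Cxcl12 was at 36.3 and 10.5 CPM. Endothelial-like cells, which held Kitl, were at 4.98 CPM.

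**Figure D4:**
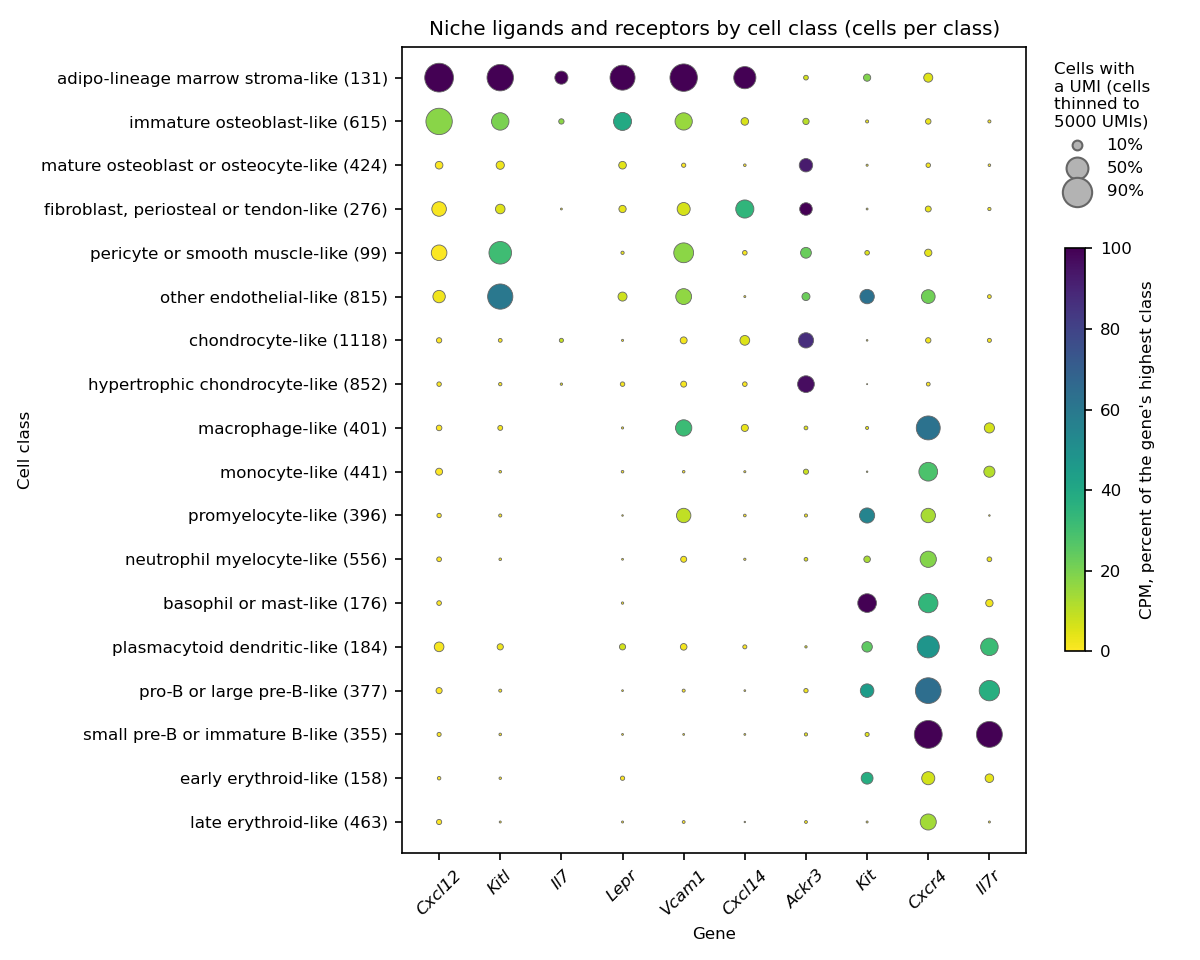
Each dot is 1 gene in 1 cell class of at least 50 cells (number of cells in parentheses), so the T, NK or innate lymphoid-like and Schwann-like classes are not drawn. Its area is the share of cells with a UMI after thinning to 5000 UMIs, with cells of fewer UMIs left out. Its colour is the CPM as a percentage of the gene's highest class drawn, so colours compare classes within a gene only. The 6 columns from Cxcl12 to Cxcl14 are darkest in the marrow stroma-like row. Ackr3 is darkest in the fibroblast-like, mature osteoblast or osteocyte-like and cartilage rows. Cxcr4 and Il7r are darkest in the small pre-B or immature B-like row, and Kit in the basophil or mast-like row.

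Of the 10 genes 6 were highest in the marrow stroma-like class of the first resolution. The share of all genes with their highest level in this class was not computed, so the count has no background to be compared with. It also depended on the resolution for Kitl. At resolution 2 Kitl was highest in the Eln-led endothelial-like cells, at 459 CPM against 428 CPM in marrow stroma-like cells, with overlapping intervals. After thinning, Cxcl12 was found in 86.7% of the marrow stroma-like cells of the first resolution, Cxcl14 in 51.6% and Il7 in 18.0%. Joint detection in a cell follows in part from how common each gene was, and no expected share was computed. After thinning, 87 of 128 marrow stroma-like cells (68.0%) had a UMI of at least 4 of Cxcl12, Kitl, Il7, Lepr, Vcam1 and Cxcl14, and 17 (13.3%) had all 6. Of 599 immature osteoblast-like cells 70 (11.7%) had at least 4 and 0 had all 6, which allows a share of up to 0.501%. With the classes of resolution 2 the share with at least 4 was 50.9% of 287 marrow stroma-like cells and 1.97% of 407 immature osteoblast-like cells, and 5.92% of the former had all 6. In mature osteoblast or osteocyte-like cells 343 of 424 (80.9%) had none of the 6. Over the 746 cells of the marrow stroma-like and immature osteoblast-like classes the rank correlation of the CPM of a cell with that of Cxcl12 was 0.70 for Kitl, 0.64 for Vcam1, 0.52 for Cxcl14, 0.49 for Lepr and 0.32 for Il7, and -0.11 for Ackr3. It was 0.53 for Adipoq and 0.62 for Lpl, -0.57 for Col1a1 and -0.37 for Spp1, an osteoblast matrix gene, and -0.18 for the depth of the cell. The pooled classes differ in the levels of most of these genes, so the correlations also carry the class difference, and none was computed within 1 class. These cells share 1 library, so the correlations are descriptions.

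Cxcr4 was found in almost all blood classes. It was highest in the 29 T, NK or innate lymphoid-like cells at 598 CPM (503 to 706), the small pre-B or immature B-like class at 414 CPM (391 to 437), the pro-B or large pre-B-like class at 266 CPM (252 to 281) and the macrophage-like class at 258 CPM (247 to 270), the last 2 overlapping. Within the B lineage the cluster of 316 cells led by Igkc and Fcrla stood at 436 CPM (411 to 461) and the 39 cells led by Iglc1 and Ms4a1, genes of later B cells, at 246 CPM (197 to 303). Plasmacytoid dendritic-like cells held 197 CPM, basophil or mast-like cells 141 CPM, monocyte-like cells 117 CPM, neutrophil myelocyte-like cells 76.5 CPM and late erythroid-like cells 57.4 CPM. After thinning, 81.4% (76.3 to 85.8) of small pre-B or immature B-like cells had a Cxcr4 UMI, and 27.6% of neutrophil myelocyte-like and 27.0% of late erythroid-like cells did. Mature osteoblast or osteocyte-like cells stood at 5.32 CPM (3.89 to 7.09), below every blood class.

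Ackr3, the other CXCL12 receptor, had a different distribution from Cxcr4, and cartilage held 68.7% of its UMIs. The fibroblast, periosteal or tendon-like class (84.4 CPM, 74.2 to 95.6), the class named by the hypertrophic chondrocyte list (81.5 CPM, 78.0 to 85.1), the mature osteoblast or osteocyte-like class (78.3 CPM, 72.5 to 84.4) and the chondrocyte-like class (73.2 CPM, 69.7 to 77.0) had overlapping neighbours. Within cartilage it was at 129 CPM (117 to 141) in the Col10a1-led cluster, 119 CPM (110 to 129) in the F3-led cluster, 96.99 CPM (91.8 to 102) in the cluster led by Cdkn1c and Ihh, 68.2 CPM in the cluster led by Nfatc2 and Matn1 and 33.8 CPM (29.9 to 38.1) in the cluster led by Il17b. The 2 fibroblast clusters differed more, at 129 CPM (113 to 146) in the 160 cells led by Mfap5 and Tnmd and 10.9 CPM (5.62 to 19.0) in the 116 cells led by Aspn and Postn. In the classes with most Cxcl12, Ackr3 was low, at 5.59 CPM (10 UMIs) in marrow stroma-like and 9.16 CPM (7.10 to 11.6) in immature osteoblast-like cells.

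Kit was found in blood progenitors, mast-lineage cells and endothelium. Among the classes of the first resolution basophil or mast-like cells came first at 88.2 CPM (78.5 to 98.6), followed by endothelial-like cells at 55.2 CPM (50.7 to 60.1) and promyelocyte-like cells at 48.2 CPM (43.3 to 53.5), which overlapped. At resolution 2 the Igfbp3-led endothelial-like cells, at 88.8 CPM, overlapped the basophil or mast-like cells, at 87.7 CPM, and with at most 5% mitochondrial UMIs the latter stood at 53.4 CPM. Pro-B or large pre-B-like cells stood at 39.6 CPM (34.1 to 45.8) and early erythroid-like cells at 33.4 CPM (28.6 to 38.7), also with overlap. Later cells of each lineage were lower, with neutrophil myelocyte-like cells at 11.5 CPM, small pre-B or immature B-like cells at 3.90 CPM and late erythroid-like cells at 0.959 CPM. At resolution 2 a cluster of 85 cells led by Car1 stood at 48.5 CPM (41.3 to 56.7) and another of 173 cells led by Car2 at 6.30 CPM (3.95 to 9.54). Together they held more cells than the early erythroid-like class of the first resolution (158 cells), so they are not a division of that class alone. No cluster was named by the stem or progenitor list. Endothelial-like cells held 28.6% of all Kit UMIs.

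Il7r was highest in B-lineage classes. It was at 342 CPM (322 to 363) in the small pre-B or immature B-like class, 127 CPM (117 to 138) in the pro-B or large pre-B-like class and 109 CPM (96.0 to 122) in the plasmacytoid dendritic-like class, whose interval overlapped the second. Within the first class the 316 Igkc-led cells held 385 CPM (362 to 409) and the 39 Iglc1-led cells 13.98 CPM (4.54 to 32.6; 5 UMIs). T, NK or innate lymphoid-like cells held 60.2 CPM (32.9 to 101) on 14 UMIs, monocyte-like cells 38.1 CPM (32.8 to 44.1) and macrophage-like cells 22.4 CPM (19.2 to 26.0). After thinning, 70.3% (64.5 to 75.6) of small pre-B or immature B-like cells had an Il7r UMI, beside 0.432% of late erythroid-like cells. A chondrocyte-like cluster of 161 cells led by Pbk, a mitotic gene, also held 91 Il7r UMIs (19.3 CPM). Of that cluster 15.5% were marked as doublets. At resolution 2 the 118 cells led by the same gene, unnamed there, held 1 Il7r UMI (0.283 CPM). The part of doublets in the first value was not tested.

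Genes of the same pathways were read from lists chosen with earlier results of these data known. Over all genes 25.4% were higher and 16.2% lower in stromal and vascular than in blood cells. Of 12 other niche ligands, 5 were higher, 0 lower, 1 neither, and 6 did not reach 10 CPM, with a median log2 ratio of 3.85 over those that did. Csf1, the macrophage growth factor, was at 89.3 against 6.41 CPM and was highest in immature osteoblast-like cells (213 CPM) and marrow stroma-like cells (205 CPM). Angpt1, the ligand of Tek, was at 132 CPM and Bmp4 at 101 CPM in marrow stroma-like cells, their highest cluster, while the Notch ligands Jag1 (387 CPM) and Dll4 (159 CPM) were highest in the 72-cell endothelial-like cluster. Other ligands were highest in blood classes. Il6 stood at 488 CPM and Il15 at 21.7 CPM in monocyte-like cells, and Tnfsf13b at 13.7 CPM in neutrophil myelocyte-like cells.

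Of 22 receptors and partners 5 were higher, 7 lower and 6 neither, and 4 did not reach 10 CPM, beside the 25.4% and 16.2% of all genes. Among those lower in stromal and vascular cells were Csf1r, the receptor of CSF1 (4.47 against 107 CPM), Flt3 (0.285 against 13.4 CPM) and Itga4 (10.3 against 112 CPM), the integrin chain that binds VCAM1. Itgb1, its partner chain, was higher in stromal and vascular cells at 482 against 127 CPM, as was Tek at 68.4 against 0.968 CPM. The kinase Jak1 was higher at 212 against 100 CPM. Jak2, Stat5a and Stat5b were neither, and Jak3 was below the minimum. Of the 7 stromal factors 5 were higher (25.4% of all genes were), with Ebf3 (194 CPM) and Foxc1 (176 CPM) highest in marrow stroma-like cells. Both genes are on the marker list that named this class, so their place there is not independent of the name. Ebf1, which also acts in the B lineage, was neither, at 294 against 278 CPM, and stood at 1749 CPM in the Igkc-led B-lineage cluster.

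The last comparison asked whether cells that descend from Col10a1-expressing chondrocytes, read as cells with more than 14 UMIs of the reporter's WPRE sequence, differed from other cells of their class. The share of such cells was 19.8% (13.4 to 27.7) of marrow stroma-like cells, 17.7% (14.8 to 21.0) of immature osteoblast-like cells and 35.1% (30.6 to 39.9) of mature osteoblast or osteocyte-like cells. It was 0.123% of endothelial-like and 0.375% of blood cells. A negative cell is not shown to have another origin, since the sequence may be missed. In this mouse the Cre that switches on the reporter also deletes a copy of Irx3. Descent and the loss of that copy therefore cannot be told apart in these ratios. In immature osteoblast-like cells (109 positive, 506 negative) Lepr was at 216 CPM in positive and 98.7 CPM in negative cells, a log2 ratio of 1.13 (0.93 to 1.33), with a UMI in 82.6% and 43.1% of them. Cxcl14 was at 79.6 against 17.9 CPM, a log2 ratio of 2.15 (1.76 to 2.55), though 3 cells held 44.2% of the UMIs of the positive cells. Il7 was at 15.3 against 4.30 CPM on 23 and 25 UMIs, a log2 ratio of 1.83 (0.94 to 2.70). Cxcl12 was at 1370 against 1588 CPM, a log2 ratio of -0.21 (-0.28 to -0.14), and Kitl at 82.3 against 114 CPM, or -0.47 (-0.76 to -0.19). With this definition Il7, Lepr and Cxcl14 were at least 2-fold higher in positive cells, where 1.88% of 8500 genes were, and Cxcr4, on 9 and 77 UMIs, was at least 2-fold lower, where 2.69% were. These calls depended on the definition and on doublets, and that of Il7 also on the class boundary. When at least 1 tdTomato UMI marked a positive cell, the log2 ratio was 0.62 for Il7, 0.45 for Lepr and 0.74 for Cxcl14, all under 2-fold, and -2.98 for Cxcr4. That definition marked only 38 cells of this class, against 109 by WPRE. This is below the minimum of 50 cells per side set for the WPRE comparisons. With doublets left out Lepr was at 0.98 and Cxcr4 at -0.36, both under 2-fold, whereas Ackr3 passed it at 1.36. In the immature osteoblast-like class of resolution 2, Il7 was at 7.09 against 2.15 CPM on 7 and 9 UMIs, below the minimum of 10 CPM. Cxcl14 had 12 and 9 UMIs in that class, beside 120 and 104 at the first resolution.

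In mature osteoblast or osteocyte-like cells (149 positive, 275 negative) Lepr was again higher in positive cells, at 24.4 against 8.19 CPM, a log2 ratio of 1.58 (1.03 to 2.14), and Kitl was at 9.16 against 17.3 CPM, or -0.92 (-1.56 to -0.31). Ackr3 was at 107 against 60.9 CPM, or 0.81 (0.59 to 1.03). Cxcl12 was at 80.3 against 34.6 CPM, or 1.21 (0.94 to 1.49), but 3 cells held 84.4% of the UMIs of the positive cells, and with doublets left out the log2 ratio turned to -0.81. It was 0.92 with the tdTomato definition (66 positive cells) and 0.68 at resolution 2, both under 2-fold, while Lepr was at 1.03 with the tdTomato definition. With the WPRE definition Lepr and Cxcl12 were at least 2-fold higher, where 1.36% of 7300 genes were, and 0 of the genes at 10 CPM or more were 2-fold lower, where 1.15% were. The marrow stroma-like class had too few positive cells (26) at the first resolution. At resolution 2, with 63 positive and 232 negative cells, Cxcl14 was at 590 against 262 CPM, a log2 ratio of 1.17 (0.99 to 1.34). The 3 highest cells held 35.6% of its UMIs in positive and 21.0% in negative cells. In this class 2.75% of 8756 genes were at least 2-fold higher and 3.97% lower. None of the 10 genes was called lower there. Lepr was at 370 against 279 CPM, or 0.40 (0.20 to 0.61), Kitl at 308 against 464 CPM, or -0.59 (-0.80 to -0.39), and Cxcl12 at 5894 against 7297 CPM, or -0.31 (-0.36 to -0.26). In the immature osteoblast-like class of that resolution (66 positive, 352 negative) Lepr was at 177 against 55.4 CPM, a log2 ratio of 1.68 (1.39 to 1.97), where 3.18% of genes were called higher and 3.92% lower. Vcam1 went the other way there, at 25.3 against 51.8 CPM, or -1.03 (-1.69 to -0.43). Cxcl14 was also called higher, at 2.50 on 12 and 9 UMIs, with 3 cells holding 91.7% of the UMIs of the positive cells. Cxcr4 was called lower, at -1.02 on 8 and 69 UMIs. In the mature class (158 positive, 293 negative) Lepr was at 29.2 against 11.2 CPM, or 1.38 (0.91 to 1.85), where 1.13% were called higher and 1.21% lower. Across the 3 classes and with the WPRE definition Lepr lay above 0 and Kitl below 0 in positive cells. With doublets kept, the difference of Kitl was under 2-fold in each class. With doublets left out, its log2 ratio in mature osteoblast or osteocyte-like cells was -1.29, over 2-fold, beside -0.92 with them. In the immature osteoblast-like class of resolution 2, 3 cells held 51.3% of the Kitl UMIs of the positive cells. The intervals cover counting error in 1 library, so they do not show that these directions would recur in another animal.

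**Figure D5:**
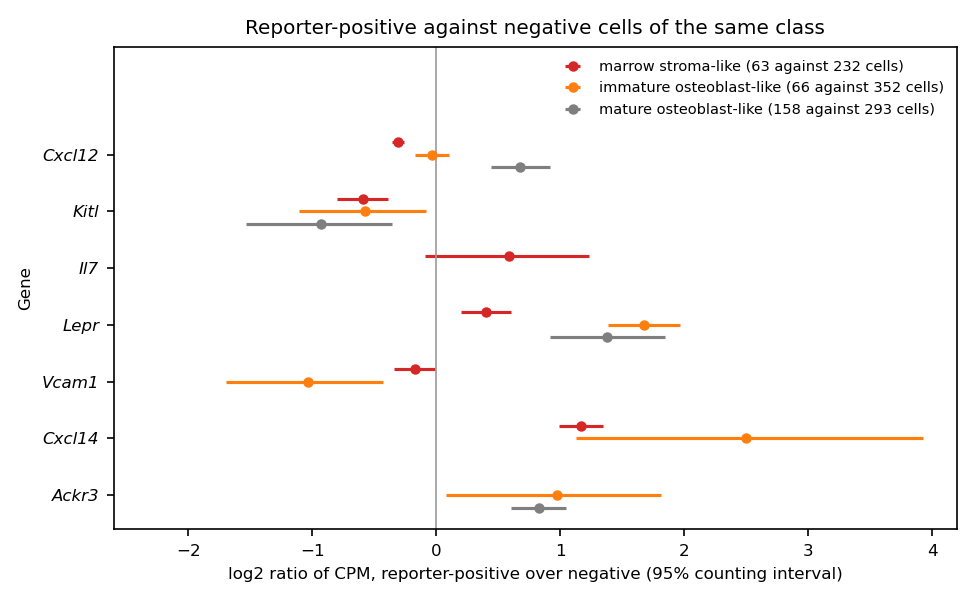
Log2 ratio of the CPM in reporter-positive over reporter-negative cells of the marrow stroma-like (red), immature osteoblast-like (orange) and mature osteoblast or osteocyte-like (grey) classes at resolution 2, with 95% counting intervals, for genes at 10 CPM or more on either side. Lepr lies to the right of 0 in all 3 classes (0.40, 1.68 and 1.38) and Kitl to the left (-0.59, -0.58 and -0.93).

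The genes whose levels were most like each of the 10 over the 20 named classes were picked from 7134 genes that reached 50 CPM in a class. They were Pappa (r = 0.90), Gas6 and Nav3 for Cxcl12, and Heph (r = 0.95), Epas1 and Nectin2 for Kitl. Il7 was nearest to Kng2 (r = 0.91), Gzme and Kng1, and Lepr to Gdpd2 (r = 0.94), Podnl1 and Csf1. Vcam1 had lower values, led by Fblim1 (r = 0.86), Actn1 and Myof, and Cxcl14 was nearest to Ltbp2 (r = 0.92), Ism1 and Ghr. For the receptors the nearest were Inpp5d (r = 0.95), Sp110 and 1700017B05Rik for Cxcr4, and Plcd1 (r = 0.94), 3632451O06Rik and Frzb for Ackr3. Kit was nearest to Hhex (r = 0.83), Hmgn5 and Egfl7, and Il7r to Slamf6 (r = 0.95), Irf4 and Ighm. These lists depended on the CPM added before the logarithm. With 10 CPM in place of 1, 20 of the 30 genes recurred, and Lepr came first for Cxcl12 (r = 0.94). Pappa, Gas6 and Kng1 are also on the marker list of the marrow stroma-like class, and Egfl7 on that of the endothelial-like class. The classes share 1 library, and the correlations are descriptions over 20 points.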

How the data were processed

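Single cells of 2 tibiae of 1 mouse (postnatal day 6) were captured as 1 library. The authors counted it with Cell Ranger 3.1.0 against mm10, to which the reporter sequences (tdTomato, WPRE) had been joined, and deposited UMI counts per gene and barcode without normalization, and a second count matrix of exogenous sequences. Seurat 3 is also named in the submitters' processing notes. Coordinates come from GENCODE M21 (GRCm38).

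Cells with at least 1600 genes, the minimum of the study, at most 10% mitochondrial and 50% ribosomal protein UMIs were kept. Scanpy 1.11.5 was used: scaling to 10000, 2000 variable genes without the 10 genes, 30 components, 20 neighbours, Leiden resolution 1. Doublets (Scrublet, expected 10%) marked 4.15% of barcodes and were kept. Clusters took the name of the list with most markers among the 25 genes of highest fold against other cells, with 10 CPM added. The rule also needed 1 marker among the top 10 or a mean log2 fold of 3, at least 3 markers at 10 CPM, and at most 50% doublets. Blood names and other names were separated by Ptprc (50 CPM) and by Col1a1 and Col2a1 (5000 CPM in the median cell). It was set after the clusters had been seen, so the names may differ from those of the study. One unnamed cluster of 202 cells with Ptprc, led by Tnf, Ccl3 and Treml4, counted as blood. The compartment of stromal cells includes pericyte or smooth muscle-like cells.

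Levels are sums over cells with exact Poisson intervals, ratios have exact conditional binomial intervals, and shares exact Clopper-Pearson intervals, all at 95% and for counting error only, so they are too narrow where few cells hold most UMIs. For 0 counts the limit is 3 counts. With 1 mouse no test was possible. Reporter-positive cells had more than 14 WPRE UMIs, or at least 1 tdTomato UMI as an alternative. Shares were thinned to 5000 UMIs per cell without replacement, and cells with fewer UMIs were left out of them. Likeness is Pearson's r of log2(CPM + 1). The scripts were tested on simulated data. The genes and lists were chosen with earlier results of these data known; genes named in the text are the 10, 41 pathway genes and the 3 most like each of the 10. Leading genes and markers beside them describe clusters.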

Additional observations from a re-analysis of the deposited data

How the results depend on the processing

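Of the 100 alternative values of the stromal and vascular over blood comparison 56 moved by less than their counting interval, and 9 of the 10 genes kept their direction under every alternative run. Kit turned to 0.13 with the mean of the CPM of each cell. All values here are log2 ratios. That mean also gave Cxcl12 6.10, Cxcr4 -2.52, Kitl 6.27, Il7r -4.94, Lepr 5.46, Vcam1 1.58 and Cxcl14 4.43. Leiden resolution 0.6 gave Cxcl12 6.49, Ackr3 3.097, Lepr 5.73 and Cxcl14 3.70, and resolution 2 gave Cxcl12 4.80 and Vcam1 1.22. A minimum of 1000 genes gave Cxcr4 -2.20 and Vcam1 1.42, and one of 500 genes gave Cxcl12 6.30, Cxcr4 -2.18, Ackr3 3.395, Kit -0.0805, Il7r -3.47, Lepr 5.35 and Vcam1 1.47. A limit of 5% mitochondrial UMIs gave Cxcl12 7.01, Cxcr4 -1.58, Ackr3 2.82, Kitl 6.32, Il7r -3.14, Lepr 5.98, Vcam1 2.15 and Cxcl14 3.65. With 3000 variable genes Cxcl12 was 5.51 and Ackr3 4.05, and with the 10 genes kept among the variable genes Cxcl12 was 6.35 and Lepr 5.51. Without doublets Cxcl12 was 6.45, Cxcr4 -2.28, Ackr3 4.30, Kitl 6.22, Il7r -4.42 and Lepr 5.77, and the reporter ratio of Cxcl12 in mature osteoblast or osteocyte-like cells turned to -0.81. Without the plasmacytoid dendritic-like cluster, an alternative chosen after seeing the data, Cxcl12 was 6.43, Kitl 6.06 and Lepr 5.67. The causes were not tested. The marrow stroma-like class did not form at resolution 0.6 or with the 5% limit, but together with the immature osteoblast-like class it held 81.8% to 89.4% of Cxcl12 UMIs in every setting. No paired analysis was possible because the 4 sequencing entries are 1 library and there is no second group.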
